A study of Mus musculus with 3 samples.

Results

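The genes described here are the very long genes with a measurable transcript level in mouse liver. They were chosen from the deposited tables as rows whose span, from gene start to gene end including introns, is at least 250 kb and whose FPKM is at least 1 in any of the 3 libraries. FPKM is the number of fragments per kilobase of transcript and per M mapped fragments, so it is a level per length. Growth hormone receptor (Ghr), Reln, predicted and clone-based models, small RNA genes and the Ugt1a genes were left out by symbol. Of the 23850 rows of each table, 682 span at least 250 kb, 298 of these reach 1 FPKM, and 28 of those were left out by symbol, which leaves 270 members under 269 symbols. Another 359 rows of that length, which the symbols do not leave out, stayed under 1 FPKM in every library and are not described.

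A very long gene is mostly intron. RNA polymerase II must travel the whole span to make one transcript, which takes hours where most genes need minutes, and a lesion that stops the polymerase anywhere in the gene can end that round. ERCC1 pairs with XPF in an endonuclease that cuts out damaged DNA in nucleotide excision repair, the transcription-coupled branch included, and that also acts on interstrand crosslinks. In liver the longest genes code for few of the secreted hepatocyte products. Among very long genes in general are many for synaptic adhesion, ion channels, signalling and transcription.

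The libraries were made from total RNA of flash-frozen liver after removal of ribosomal RNA, at 16 weeks of age on a mixed C57BL6J/FVB background, 1 library per group. The groups were Ercc1 delta/- mice on diet restriction (Ercc1 DR), Ercc1 delta/- mice fed ad libitum (Ercc1 AL) and, without the mutation, freely fed wild-type animals (wt AL). The delta allele is known as a truncation and the other allele as a null, in every tissue, so both mutant groups carry the same repair defect and no restricted wild type was part of this set. With 1 library per group no difference has a replicate check, and no SD, p-value or test between groups is given. Whether RNA of several animals was pooled is not stated.

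Ercc1 itself was at 0.475 FPKM in Ercc1 DR, 0.573 FPKM in Ercc1 AL and 0.461 FPKM in wt AL, with deposited intervals that overlap. The tables give no level per exon, so this is no check of the genotype labels. Libraries differed in general level, and each was divided by a scale factor, the median ratio to the geometric mean of the 3 libraries over the 9109 genes at 1 FPKM or more in all of them. The factors were 1.29 in Ercc1 DR, 1.04 in Ercc1 AL and 0.747 in wt AL. Ratios below are log2 ratios of scaled FPKM + 1 unless called as deposited, levels are FPKM as deposited, and "2-fold" means a log2 ratio of at least 1 in size. At low levels the added 1 pulls a ratio towards 0. Hepatocyte markers were high in every library, with a summed FPKM over the 8 with an estimate, albumin not among them, of 8338 in Ercc1 DR, 3992 in Ercc1 AL and 2796 in wt AL, and none of 7 neuron markers reached 1 FPKM in any library. The 12 markers of sinusoidal endothelium all reached 1 FPKM and summed to 23.6 FPKM in Ercc1 DR, 47.0 FPKM in Ercc1 AL and 53.1 FPKM in wt AL.

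Spans ran between 253 and 2271 kb with a median of 371 kb. There were 70 members of at least 500 kb and 10 of at least 1000 kb. In the GENCODE M21 annotation 268 of the 270 were found, all as protein-coding genes, and their exons made up a median of 2.20% of the span. The members were spread over the genome, with 20 on chromosome 1 as the highest number and 11 on the X chromosome. Most had low levels. The median member was at 1.29 FPKM in Ercc1 DR, 1.75 FPKM in Ercc1 AL and 1.51 FPKM in wt AL, and 22, 21 and 20 members in that order reached 10 FPKM. The deposited interval of the median member reached 9.13% of its value to either side in Ercc1 DR, 7.82% in Ercc1 AL and 9.21% in wt AL, which covers counting and assignment of fragments only. Of the 270, 134 passed 1 FPKM in all 3 libraries, 35 in Ercc1 AL only, 18 in wt AL only and 15 in Ercc1 DR only. Another 45 passed in all but Ercc1 DR, 22 in all but wt AL and 1 in all but Ercc1 AL. A member that passed in 1 library only had to be higher there. One that failed in 1 library only, as the 45 did in Ercc1 DR, had to be lowest there as deposited. Counts over the members therefore describe them and support no direction.

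The 2 rows named Bc1 go against the label. Bc1 is a short noncoding RNA, yet the rows span 672 kb on chromosome 10 and 945 kb on the X chromosome, intervals in which other genes lie. Their deposited FPKM lay far outside its own interval, for example 24.3 FPKM in Ercc1 DR against an interval of 1.33 to 3.28 on the X chromosome. They stay in the counts by the rule. Without them the medians given below were -0.12, -0.42 and -0.51 in place of -0.13, -0.43 and -0.52, and 65 members in place of 67 were 2-fold lower in Ercc1 DR than in wt AL.

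In the Ercc1 mutant fed ad libitum, very long genes stood slightly below wild type for their level. The median log2 ratio of Ercc1 AL over wt AL was -0.13 over the 270 members, and 0.05 over genes of 10 to 50 kb. By the 2-fold rule 1 member was higher, where 1.03% of all named genes tested were higher, and 19 members (7.04%) were lower, where 4.19% of all tested were lower. The deposited intervals, scaled alike, did not overlap for any of the 19 (background 4.17%). Each member was also set against the 20 genes of 10 to 50 kb nearest to it in wt AL FPKM. Of the members, 207 (76.7%) lay below the median of their matched genes, as 53.5% of all tested genes did, and the median difference was -0.18. As deposited, without scaling, the median of the members was 0.16 against 0.36 for genes of 10 to 50 kb, with 2 members 2-fold higher (background 3.62%) and 9 lower (background 1.73%). The sign of the median thus flips without scaling. Members stay below shorter genes, but scaling moves both nearly alike, so that side could hardly change and is no separate check.

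Within the mutant, very long genes also stood below shorter genes under diet restriction. The median log2 ratio of Ercc1 DR over Ercc1 AL was -0.43 for members and 0.03 for genes of 10 to 50 kb. Tmtc2, a member through its Ercc1 DR value only, was the single one 2-fold higher (background 2.99%). Lower were 27 members (10%, background 6.47%), 26 of them with intervals that did not overlap (background 6.43%). Below their matched genes were 211 members (78.1%, background 53.6%), with a median difference of -0.39. Over the 134 members at 1 FPKM or more in all 3 libraries the median was -0.20, close to the -0.23 of the same members in Ercc1 AL vs wt AL. Over the 36 members with a mean of 5 FPKM or more it was -0.16, against -0.49 in Ercc1 AL vs wt AL, so which comparison had the wider gap depends on the level of the members taken. As deposited the median of the 270 was -0.27, where genes of 10 to 50 kb had 0.26, with 5 members higher (background 6.67%) and 22 lower (background 4.64%). The general scale moved this comparison furthest. Under scaling by the sum of FPKM without the 100 most abundant rows, the median of the members was 0.44, with 61 members 2-fold higher and 0 lower, while that scaling put the median of the 9109 genes at 1.21.

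Between the restricted mutant and the freely fed wild type both differences add up in the same libraries, so this comparison is no separate evidence. The median log2 ratio of Ercc1 DR over wt AL was -0.52 for members and 0.07 for genes of 10 to 50 kb. Rapgef4 and Tmtc2 were the 2 members past 2-fold upward (background 5.70%), and 67 members (24.8%) were lower (background 12.0%). Of the 67, 65 had deposited intervals that did not overlap after scaling (background 11.9%). Below their matched genes were 230 members (85.2%, background 55.3%), with a median difference of -0.54. As deposited the split was 13 higher (background 24.3%) and 28 lower (background 5.87%) with a median of -0.09, where genes of 10 to 50 kb had 0.61. Under the scaling by the sum it was 37 higher and 25 lower, with a median of 0.17 against 1.01 for the 9109 genes.

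**Figure D1:**
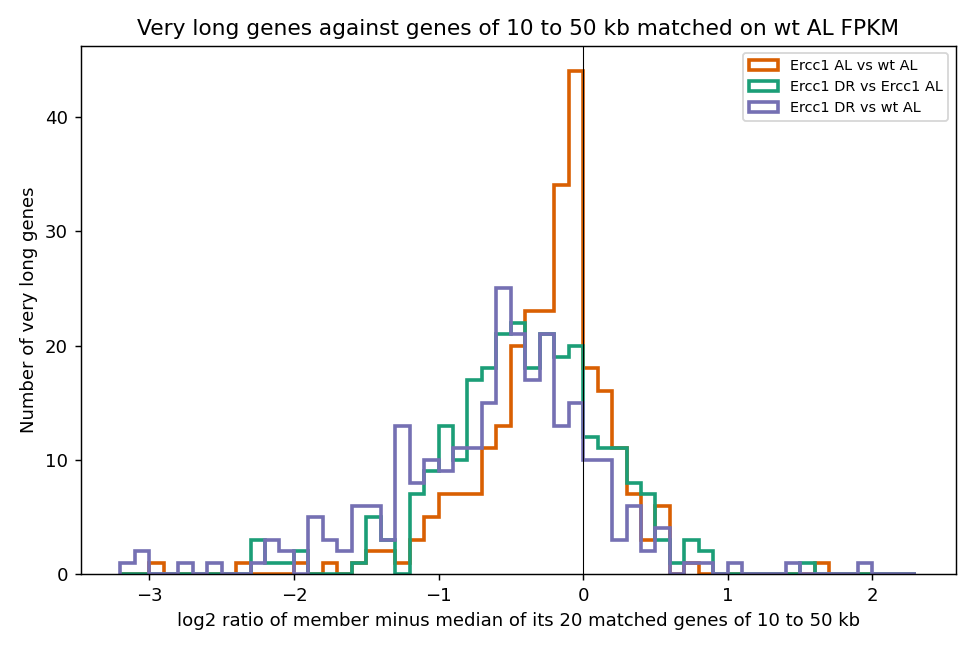
Number of very long genes (vertical axis) by the log2 ratio of a member minus the median log2 ratio of its 20 matched genes of 10 to 50 kb (horizontal axis), 1 outline per comparison. Most members lie left of 0 in each comparison, 207 for Ercc1 AL vs wt AL, 211 for Ercc1 DR vs Ercc1 AL and 230 for Ercc1 DR vs wt AL.

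The markers of sinusoidal endothelium had medians on the same side, at -0.35 in Ercc1 AL vs wt AL and -0.72 in Ercc1 DR vs Ercc1 AL. In Ercc1 DR vs wt AL their median was -1.06, and 6 of 12 were 2-fold lower (background 12.0%). Tek, at 0.32 in Ercc1 AL vs wt AL, and Lyve1, at 0.17 in Ercc1 DR vs Ercc1 AL, went the other way there. Macrophage markers had medians of -0.01, -0.69 and -0.80 in Ercc1 AL vs wt AL, Ercc1 DR vs Ercc1 AL and Ercc1 DR vs wt AL, over the 9 at 1 FPKM or more. The medians of the hepatocyte markers went the other way, with 0.19, 0.60 and 0.65 over 8. Of these, Serpina1a was below 0 throughout, at -0.47, -0.86 and -1.33. Ttr at -0.79 and Apob at -0.14 were below 0 in Ercc1 AL vs wt AL only. The other hepatocyte markers with an estimate were above 0 in each comparison. The medians of stellate cell, cholangiocyte, neutrophil, erythroid and muscle markers were below 0 in each comparison. In bulk tissue, fewer cells of a type and less RNA per cell cannot be told apart. The part of cell makeup in the members' ratios was not tested.

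From 100 kb on, median ratios were lower at longer spans, while shorter genes showed no steady trend. For Ercc1 DR over wt AL the median was -0.13 under 10 kb, 0.07 between 10 and 50 kb, 0.03 between 50 and 100 kb, -0.12 between 100 and 250 kb, -0.43 between 250 and 500 kb and -0.78 from 500 kb on. For Ercc1 DR over Ercc1 AL the last 2 values were -0.35 and -0.58, against 0.03 between 10 and 50 kb. For Ercc1 AL over wt AL they were -0.11 and -0.20, against 0.05. Up to 100 kb the medians of all 3 comparisons thus lay between -0.13 and 0.07, and above 100 kb each was below 0. These are medians after median scaling. As deposited, every span class was higher, by unlike amounts. For Ercc1 DR over wt AL the as deposited median was 0.61 between 10 and 50 kb and -0.33 from 500 kb on. Over the 31 members from 500 kb on that passed 1 FPKM in all 3 libraries, the median was -0.78 for Ercc1 DR over wt AL, -0.38 for Ercc1 DR over Ercc1 AL and -0.26 for Ercc1 AL over wt AL. Among the members alone, Spearman's rho of the log2 ratio with span was -0.08 for Ercc1 AL vs wt AL, -0.25 for Ercc1 DR vs Ercc1 AL and -0.26 for Ercc1 DR vs wt AL over 270 members, which share their libraries.

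**Figure D2:**
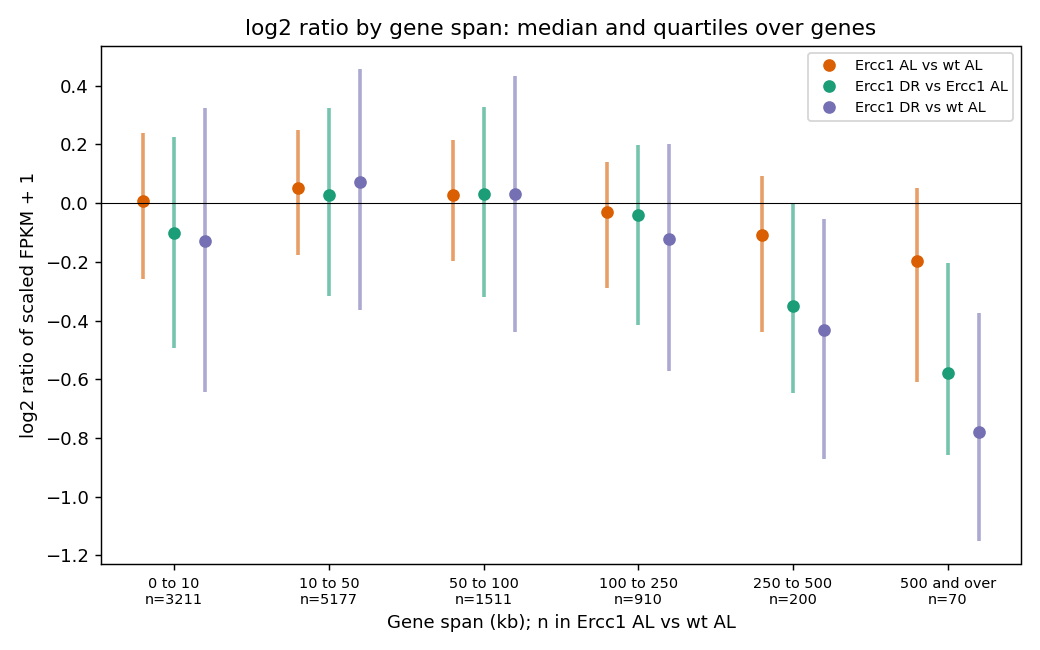
Log2 ratio of scaled FPKM + 1 (vertical axis) by gene span in kb (horizontal axis), with points for medians and lines for quartiles over genes. Medians lie near 0 up to 100 kb and reach -0.78 for Ercc1 DR vs wt AL, -0.58 for Ercc1 DR vs Ercc1 AL and -0.20 for Ercc1 AL vs wt AL at 500 kb and over.

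Span alone did not order the genes. Ptprd, a receptor tyrosine phosphatase and the longest member at 2271 kb, had 7.26 FPKM in Ercc1 DR, 4.60 FPKM in Ercc1 AL and 5.61 FPKM in wt AL. Its log2 ratio was 0.29 for Ercc1 DR over Ercc1 AL and -0.36 for Ercc1 DR over wt AL. Macrod2, an ADP-ribose hydrolase of 1995 kb, had 0.720 FPKM in Ercc1 DR, 1.38 FPKM in Ercc1 AL and 0.856 FPKM in wt AL. Nrxn3, a presynaptic adhesion protein of 1540 kb, had 0.250 FPKM in Ercc1 DR, 0.510 FPKM in Ercc1 AL and 1.18 FPKM in wt AL, and only its wild-type value passed 1 FPKM. Il1rapl1, a synaptic receptor of 1368 kb, and Pde4d, a cAMP phosphodiesterase of 1302 kb, were within 2-fold in all 3 comparisons, with log2 ratios between -0.29 and 0.07. Prkg1, the cGMP-dependent kinase of 1201 kb, had 0.739 FPKM in Ercc1 DR, 1.60 FPKM in Ercc1 AL and 1.31 FPKM in wt AL. None of these 6 longest members was 2-fold higher in any comparison, and Nrxn3 was 2-fold lower in Ercc1 DR vs wt AL.

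**Figure D3:**
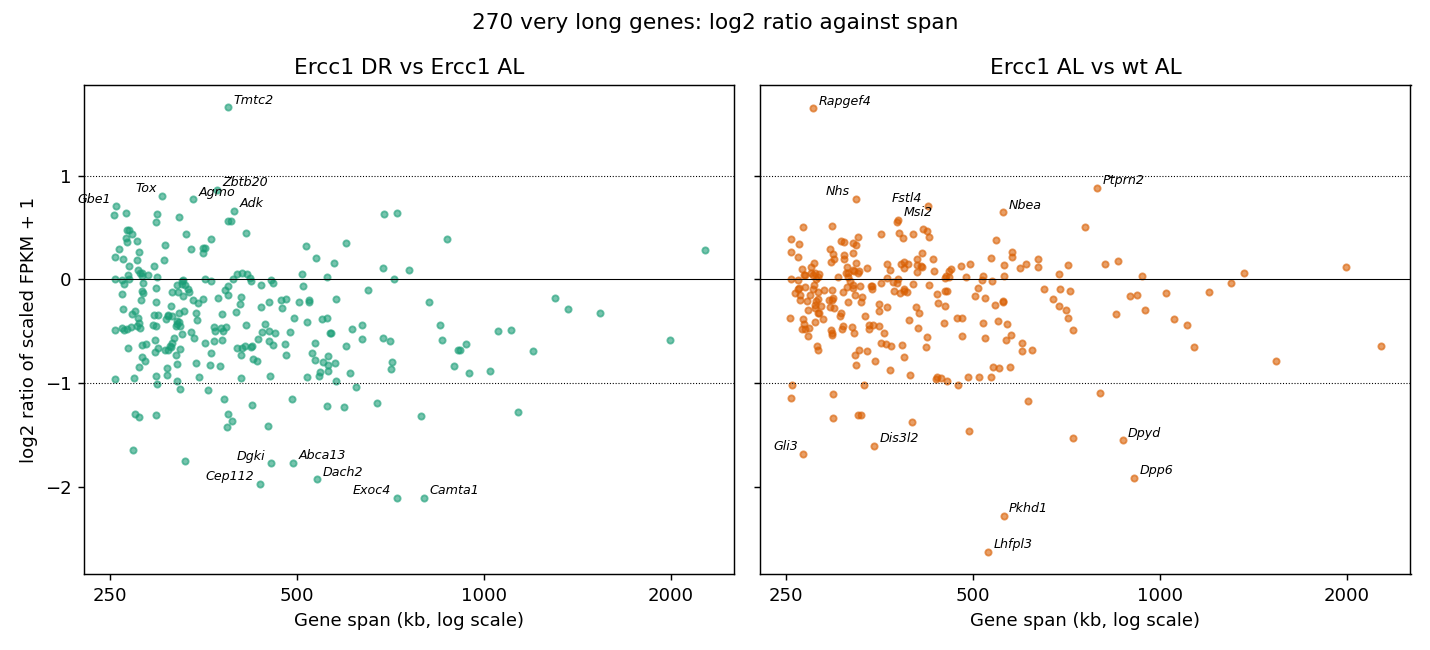
Log2 ratio of scaled FPKM + 1 (vertical axis) against gene span in kb (horizontal log axis) for the 270 members, with the 2-fold limits dotted and the 6 highest and 6 lowest members named. Exoc4 and Camta1 lie lowest at -2.11 in Ercc1 DR vs Ercc1 AL, Lhfpl3 at -2.63 in Ercc1 AL vs wt AL.

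Of the 4 members with the highest mean level, 3 were far lower in Ercc1 DR than in wt AL. Exoc4 codes for a subunit of the exocyst, which tethers secretory vesicles to the plasma membrane, and lies at chr6:33249150-33972930 on the plus strand (mm10). It was at 24.7 FPKM in Ercc1 DR, 88.8 FPKM in Ercc1 AL and 186 FPKM in wt AL, the highest wild-type level of any member. Its log2 ratio was -1.53 for Ercc1 AL over wt AL, -2.11 for Ercc1 DR over Ercc1 AL and -3.63 for Ercc1 DR over wt AL. Camta1, a calmodulin-binding transcription activator at chr4:151059523-151861768 on the minus strand, had 23.4 FPKM in Ercc1 DR, 84.4 FPKM in Ercc1 AL and 131 FPKM in wt AL. Nedd4l, a ubiquitin ligase that limits the epithelial sodium channel, had 21.4 FPKM in Ercc1 DR, 60.5 FPKM in Ercc1 AL and 109 FPKM in wt AL. For each of these genes the level was lowest in the restricted mutant and highest in wild type, scaled or not.

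Some members at intermediate level had this order too, while others named further below did not. Dach2, a transcription cofactor on the X chromosome, had 6.92 FPKM in Ercc1 DR, 24.1 FPKM in Ercc1 AL and 31.9 FPKM in wt AL. Dgki, a diacylglycerol kinase, had 7.39 FPKM in Ercc1 DR, 22.8 FPKM in Ercc1 AL and 33.1 FPKM in wt AL. Abca13, a lipid transporter, had 4.02 FPKM in Ercc1 DR, 13.5 FPKM in Ercc1 AL and 28.1 FPKM in wt AL. These 3 genes had log2 ratios of -1.93, -1.77 and -1.77 for Ercc1 DR over Ercc1 AL. Cep112, a centrosomal protein, had 3.20 FPKM in Ercc1 DR, 13.1 FPKM in Ercc1 AL and 19.1 FPKM in wt AL. For it the log2 ratio was -1.97 for Ercc1 DR over Ercc1 AL and -0.96 for Ercc1 AL over wt AL. In Zfpm2, a cofactor of GATA factors, the mutant fed ad libitum stood at wild-type level before scaling, with 19.2 FPKM in Ercc1 DR, 42.7 FPKM in Ercc1 AL and 41.4 FPKM in wt AL. Under the scaling by the sum its log2 ratio for Ercc1 DR over Ercc1 AL turned to 0.07, against -1.41. In 17 of the 270 members the value of at least 1 library lay outside the interval deposited with it, among them Exoc4, Camta1, Nedd4l, Dgki, Zfpm2, Fbxl7, Gbe1, Agmo, Dpyd, Iqgap2 and Rora.

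**Figure D4:**
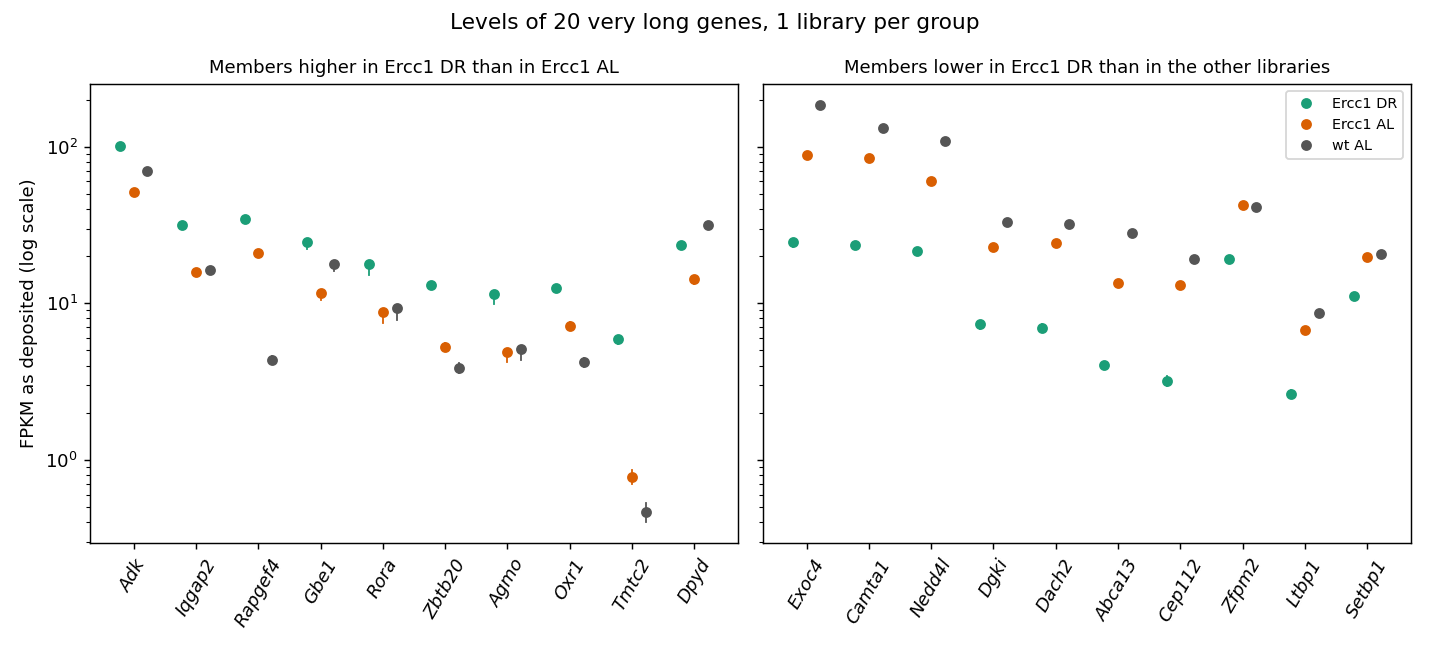
FPKM as deposited (vertical log axis) of 20 members in the 3 libraries, with lines for the deposited intervals. On the right the Ercc1 DR library is lowest for each of the 10 genes, for example 24.7 FPKM for Exoc4 against 88.8 FPKM in Ercc1 AL and 186 FPKM in wt AL, and on the left it is above Ercc1 AL for each.

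By ratios with the added 1, other members were lower mainly between the mutant fed ad libitum and wild type. Several of them were near or under 1 FPKM in the mutants. There the added 1 shrinks the further step down to Ercc1 DR, which was -0.74 for Pkhd1 and -0.47 for Gli3. Each gene named here was lower again in Ercc1 DR than in Ercc1 AL, so the grouping depends in part on the added 1. Lhfpl3, a tetraspan membrane protein, had 0.327 FPKM in Ercc1 DR, 1.09 FPKM in Ercc1 AL and 8.77 FPKM in wt AL. Pkhd1, the fibrocystin of bile duct and kidney cilia, had 0.666 FPKM in Ercc1 DR, 1.59 FPKM in Ercc1 AL and 8.48 FPKM in wt AL. Their log2 ratios for Ercc1 AL over wt AL were -2.63 and -2.28, the lowest of all members. Of 6 cholangiocyte markers, 4 reached 1 FPKM, and the 6 summed to 5.02 FPKM in Ercc1 DR, 5.16 FPKM in Ercc1 AL and 8.04 FPKM in wt AL, whose part in the Pkhd1 ratio was not tested. Dpp6, a potassium channel partner, had 0.336 FPKM in Ercc1 DR, 1.06 FPKM in Ercc1 AL and 4.97 FPKM in wt AL. Gli3, a transcription factor of hedgehog signalling, had 0.318 FPKM in Ercc1 DR, 0.757 FPKM in Ercc1 AL and 3.41 FPKM in wt AL.

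Grouped by role, the lists below had medians under 0 for Ercc1 DR over wt AL after median scaling. As deposited, the medians of GTPase regulators at 0.22 and of RNA binding at 0.44 turned positive and that of metabolism and transport was 0.0017, and under the scaling by the sum that of adhesion, receptors and matrix was -0.32 while those of the other lists were above 0. Counts of 2-fold members are read against the 5.70% higher and 12.0% lower among all genes tested.

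Transcription regulators spread widely. Of 19 members 0 were 2-fold higher and 6 were lower for Ercc1 DR over wt AL, with a median of -0.39. Besides Camta1 and Zfpm2, Tshz2, a zinc finger homeobox factor, had 0.490 FPKM in Ercc1 DR, 0.972 FPKM in Ercc1 AL and 2.45 FPKM in wt AL. Setbp1, a SET-binding nuclear protein, had 11.1 FPKM in Ercc1 DR, 19.7 FPKM in Ercc1 AL and 20.7 FPKM in wt AL. At the other end stood Zbtb20, a zinc finger repressor active in hepatocytes, with 13.1 FPKM in Ercc1 DR, 5.28 FPKM in Ercc1 AL and 3.87 FPKM in wt AL. Its log2 ratio was 0.87 for Ercc1 DR over Ercc1 AL and 0.85 for Ercc1 DR over wt AL, short of 2-fold after scaling and past it as deposited at 1.16 and 1.53. Rora, a nuclear receptor of the circadian clock and lipid metabolism, had 17.9 FPKM in Ercc1 DR, 8.85 FPKM in Ercc1 AL and 9.27 FPKM in wt AL.

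Among 27 kinases, phosphatases and related signalling enzymes 6 were lower and 0 higher for Ercc1 DR over wt AL, with a median of -0.58. Prkce, a protein kinase C isoform, had 1.06 FPKM in Ercc1 DR, 3.16 FPKM in Ercc1 AL and 5.07 FPKM in wt AL. Ptprt, a receptor tyrosine phosphatase of 1134 kb, had 1.92 FPKM in Ercc1 DR, 5.25 FPKM in Ercc1 AL and 6.35 FPKM in wt AL. The 26 members for trafficking and protein turnover had 6 lower and 0 higher, with a median of -0.53. Apart from Exoc4, Nedd4l and Cep112, Sorcs1, a sorting receptor, had 0.381 FPKM in Ercc1 DR, 1.27 FPKM in Ercc1 AL and 2.46 FPKM in wt AL. Fbxl7, a substrate receptor of a ubiquitin ligase, was highest in the freely fed mutant, with 28.7 FPKM in Ercc1 DR, 35.8 FPKM in Ercc1 AL and 18.8 FPKM in wt AL.

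The 20 adhesion, receptor and matrix genes had 9 lower and 1 higher for Ercc1 DR over wt AL and a median of -0.86. Ncam1, a neural cell adhesion molecule, had 1.01 FPKM in Ercc1 DR, 3.55 FPKM in Ercc1 AL and 6.36 FPKM in wt AL. Ltbp1, which binds latent TGF-beta in the matrix, had 2.65 FPKM in Ercc1 DR, 6.73 FPKM in Ercc1 AL and 8.68 FPKM in wt AL. The exception was Tmtc2, listed here for its role in the mannosylation of cadherins, with 5.87 FPKM in Ercc1 DR, 0.779 FPKM in Ercc1 AL and 0.465 FPKM in wt AL. Its log2 ratio was 1.66 for Ercc1 DR over Ercc1 AL, the highest of the 270, and 0.11 for Ercc1 AL over wt AL. Tmtc2 reached 1 FPKM in Ercc1 DR only, so by the rule it had to be highest there as deposited.

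The 22 regulators of GTPases and the cytoskeleton stayed within 2-fold in all 3 comparisons, with a median of -0.21 and a range of -0.78 to 0.27 for Ercc1 DR over wt AL. Utrn, the dystrophin relative utrophin, had 1.66 FPKM in Ercc1 DR, 1.66 FPKM in Ercc1 AL and 2.09 FPKM in wt AL. Magi1, a scaffold of cell junctions, had 1.15 FPKM in Ercc1 DR, 2.63 FPKM in Ercc1 AL and 1.64 FPKM in wt AL. Of the 7 RNA-binding and genome maintenance genes 1 was lower, Dis3l2, an RNA exonuclease, at 0.813 FPKM in Ercc1 DR, 0.941 FPKM in Ercc1 AL and 3.59 FPKM in wt AL. The 111 members on no list had 1 higher and 31 lower with a median of -0.53.

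**Figure D5:**
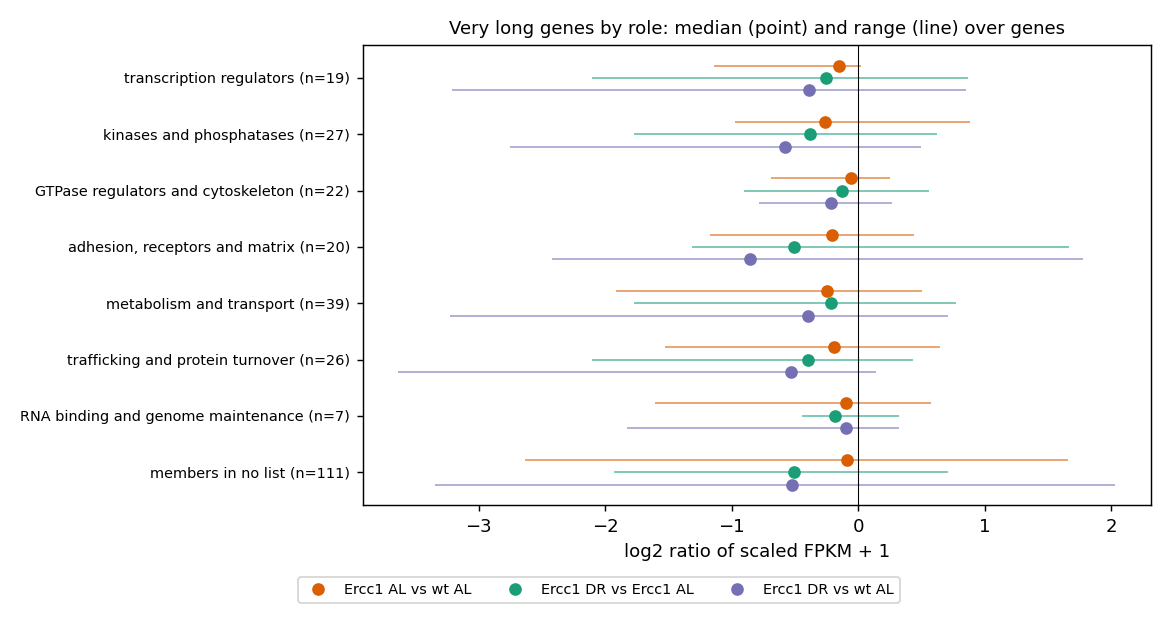
Log2 ratio of scaled FPKM + 1 (horizontal axis) by role of the members (vertical axis), with the median as a point and the range over genes as a line for each comparison, after median scaling; the sign of several medians depends on the scaling. For Ercc1 DR vs wt AL the medians run between -0.86 for adhesion, receptors and matrix and -0.09 for RNA binding and genome maintenance.

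The list of metabolism and transport counted 39 members, among them Mdga2 and Dpp6, which are neither metabolic enzymes nor transporters. Of the 39, 8 were lower and 0 higher for Ercc1 DR over wt AL, with a median of -0.40. A split by the first letters of the symbol, made after the values were seen, set apart names typical of ion channels and neurotransmitter receptors. It left 24 of this list, with a median of -0.01 for Ercc1 DR over Ercc1 AL. The 21 such symbols among all members had -0.44. They include Grip1 and Kcnip1, which are neither channels nor receptors themselves. Several enzymes had higher levels under restriction, short of 2-fold after scaling. Adk, adenosine kinase, had 101 FPKM in Ercc1 DR, 51.1 FPKM in Ercc1 AL and 70.3 FPKM in wt AL. Its log2 ratio was 0.66 for Ercc1 DR over Ercc1 AL and -0.92 for Ercc1 AL over wt AL. Gbe1, the glycogen branching enzyme, on no list, had 24.5 FPKM in Ercc1 DR, 11.6 FPKM in Ercc1 AL and 17.7 FPKM in wt AL. It was 2-fold lower in Ercc1 AL vs wt AL at -1.02 and had 0.71 for Ercc1 DR over Ercc1 AL. Agmo, which cleaves ether lipids, had 11.4 FPKM in Ercc1 DR, 4.91 FPKM in Ercc1 AL and 5.09 FPKM in wt AL. Dpyd, which starts pyrimidine breakdown, had 23.7 FPKM in Ercc1 DR, 14.3 FPKM in Ercc1 AL and 31.7 FPKM in wt AL, so the freely fed mutant was lowest. Oxr1, linked to protection from oxidative stress, had 12.6 FPKM in Ercc1 DR, 7.15 FPKM in Ercc1 AL and 4.19 FPKM in wt AL. Ryr3, a calcium release channel, had 0.189 FPKM in Ercc1 DR, 0.438 FPKM in Ercc1 AL and 2.02 FPKM in wt AL. The enzymes thus did not share one order of libraries.

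Rapgef4 had the highest ratio to wild type. It codes for EPAC2, a cAMP-activated exchange factor for Rap GTPases, and lies at chr2:71981215-72257474 on the plus strand. It had 34.4 FPKM in Ercc1 DR, 21.1 FPKM in Ercc1 AL and 4.33 FPKM in wt AL, with intervals that do not overlap. Its log2 ratio was 1.65 for Ercc1 AL over wt AL, the single member past 2-fold upward there, 0.37 for Ercc1 DR over Ercc1 AL and 2.03 for Ercc1 DR over wt AL. Iqgap2, a scaffold protein of hepatocytes, had 31.5 FPKM in Ercc1 DR, 15.9 FPKM in Ercc1 AL and 16.3 FPKM in wt AL. For Iqgap2 the log2 ratio was 0.64 for Ercc1 DR over Ercc1 AL and -0.48 for Ercc1 AL over wt AL. Mdga2, a membrane-anchored protein, had 8.39 FPKM in Ercc1 DR, 6.26 FPKM in Ercc1 AL and 2.97 FPKM in wt AL. Ctif, a factor in translation at the nuclear cap-binding complex, had 3.37 FPKM in Ercc1 DR, 1.65 FPKM in Ercc1 AL and 0.619 FPKM in wt AL. Rapgef4, Mdga2, Ctif and Oxr1 were higher in both mutant libraries than in wild type.

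A further set was highest in the freely fed mutant alone. After scaling, 70 members had the order Ercc1 DR lowest, then wt AL, then Ercc1 AL, next to 127 with Ercc1 DR lowest, then Ercc1 AL, then wt AL, and between 10 and 23 in each of the other 4 orders. As deposited the same 2 orders held 80 and 63 members, and 65 had wt AL lowest, then Ercc1 AL, then Ercc1 DR, so the leading order depends on the scaling. The orders were not counted over all genes, and the limit of 1 FPKM in any library also shapes them. No order is therefore called particular to very long genes. Ptprn2, a phosphatase-like protein of secretory granules, had 0.677 FPKM in Ercc1 DR, 2.90 FPKM in Ercc1 AL and 0.791 FPKM in wt AL. Nbea, a vesicle trafficking protein, had 0.896 FPKM in Ercc1 DR, 3.06 FPKM in Ercc1 AL and 1.14 FPKM in wt AL. Fstl4, a follistatin-like protein, had 0.741 FPKM in Ercc1 DR, 2.75 FPKM in Ercc1 AL and 0.918 FPKM in wt AL. Ptprn2 and Fstl4 reached 1 FPKM in Ercc1 AL only, so by the rule they had to be highest there as deposited. The 3 genes had log2 ratios of 0.88, 0.65 and 0.71 for Ercc1 AL over wt AL and of -1.32, -1.22 and -1.21 for Ercc1 DR over Ercc1 AL. They are known from neurons and endocrine cells, and the 7 neuron markers summed to 2.09 FPKM in Ercc1 DR, 3.05 FPKM in Ercc1 AL and 2.01 FPKM in wt AL, each under 1 FPKM.

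The starts of 2 members with high and 2 with low ratios in Ercc1 DR are shown so that their promoters can be compared. RefSeq (GRCm38.p6) gave the 100 bases before the start, printed 5′ to 3′ on the gene's strand, with capitals at each match to the GC box GGGCGG or its reverse complement. Tmtc2 lies on the minus strand at chr10:105574480-105574579 and Rapgef4 on the plus strand at chr2:71981115-71981214. Exoc4 lies on the plus strand at chr6:33249028-33249127 and Camta1 on the minus strand at chr4:151861769-151861868. The RefSeq start of Exoc4 used here lies 22 bases upstream of the gene start given above.
Tmtc2: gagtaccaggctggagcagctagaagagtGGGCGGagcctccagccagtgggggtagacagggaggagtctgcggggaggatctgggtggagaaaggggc
Rapgef4: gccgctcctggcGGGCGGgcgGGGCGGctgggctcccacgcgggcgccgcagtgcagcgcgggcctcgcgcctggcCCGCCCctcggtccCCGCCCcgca
Exoc4: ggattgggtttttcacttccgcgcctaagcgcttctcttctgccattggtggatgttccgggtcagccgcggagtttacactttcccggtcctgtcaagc
Camta1: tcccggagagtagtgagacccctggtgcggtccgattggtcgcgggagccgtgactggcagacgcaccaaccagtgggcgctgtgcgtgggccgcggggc
The higher genes Tmtc2 and Rapgef4 have GC boxes in this window, and the lower genes Exoc4 and Camta1 have no match in it, though Camta1 has one further upstream within 250 bases. The contrast does not extend to other members, since Zbtb20, on the higher side, has no GC box within 250 bases and Dach2, on the lower side, has one. The GC content was 65% for Tmtc2, 87% for Rapgef4, 56% for Exoc4 and 71% for Camta1. Over 250 bases before the start, 205 members had 309 RefSeq promoters. The GC box, on either strand, was in 46.0% of these, in 56.5% of those of genes of 10 to 50 kb and in 32.7% of all promoters. The E-box CACGTG, the same on both strands, was in 3.56% of members' promoters, in 8.63% of those of genes of 10 to 50 kb and in 6.02% of all. TATAAA, on either strand, was in 5.50%, 6.49% and 12.4% of the same sets. These matches describe letters in a window and not binding.

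A list of 56 genes of transcription elongation and transcription-coupled repair was also described. It holds general repair and replication genes too, such as Xpa, Pcna and Lig1, and its part in the members' ratios was not tested. Of the 56, 52 were measured and 47 reached 1 FPKM in a library. Their median log2 ratio was 0.02 for Ercc1 AL over wt AL, 0.28 for Ercc1 DR over Ercc1 AL and 0.31 for Ercc1 DR over wt AL. In that last comparison 5 were 2-fold higher (background 5.70%) and 2, Nelfa and Ell, were lower (background 12.0%). These last 2 and Ercc6 are named here after their values were seen. Polr2a, the largest subunit of RNA polymerase II, had 10.03 FPKM in Ercc1 DR, 5.16 FPKM in Ercc1 AL and 1.11 FPKM in wt AL. Sfpq, an RNA-binding protein known in neurons to be needed for transcription of long genes, had 52.02 FPKM in Ercc1 DR, 18.4 FPKM in Ercc1 AL and 8.14 FPKM in wt AL. Cdc73, a subunit of the PAF1 elongation complex, had 10.1 FPKM in Ercc1 DR, 3.65 FPKM in Ercc1 AL and 1.61 FPKM in wt AL. Ercc6, which recognises stalled polymerase, had 1.26 FPKM in Ercc1 DR, 1.61 FPKM in Ercc1 AL and 1.39 FPKM in wt AL, within 2-fold in all 3 comparisons.

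At the limits of the rule, Pik3c2g and Uvrag lie just inside 250 kb at 253 and 254 kb, and Cers6 and Oprm1 just outside. Pik3c2g, a lipid kinase, had 1.87 FPKM in Ercc1 DR, 0.611 FPKM in Ercc1 AL and 0.785 FPKM in wt AL. Cers6, a ceramide synthase, had 7.62 FPKM in Ercc1 DR, 2.85 FPKM in Ercc1 AL and 3.19 FPKM in wt AL. Oprm1, an opioid receptor, had 1.32 FPKM in Ercc1 DR, 2.11 FPKM in Ercc1 AL and 3.07 FPKM in wt AL, the opposite direction. Just inside 1 FPKM lay Cacna2d1 and Cdh4 with at most 1.01 FPKM in any library, and just outside Fhit and Col24a1 with 0.995 and 0.982 FPKM. Fhit, a fragile-site gene, had a log2 ratio of -0.53 for Ercc1 DR over wt AL and Col24a1, a collagen, -0.68, and Cacna2d1 and Cdh4 had -0.74 and -0.55, so genes on both sides of this limit lay in the same range.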

How the data were processed

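Gene levels were measured by sequencing of liver RNA in 3 libraries, assigned to groups by their titles. The deposited FPKM values came as 1 table per library, with an interval and a status for each value per the file headers. The build was mm10, per the submitters' processing notes. The software, annotation and strand setting behind them are not given in the sources used, so overlapping and antisense genes are not separated. A status of HIDATA or FAIL counted as missing, and every member had the status OK in all 3 libraries. The tables hold no counts and depth is unknown. Ratios, scaling, the 2-fold rule and matching on 20 genes are as given above, and were computed with Python 3.11.15 and pandas 2.3.3 and tested on simulated data. Genes were found in GENCODE M21 by symbol and overlap, and promoters come from RefSeq by symbol.

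The members and lists were chosen with earlier results of these data known. Named genes are, per comparison, the 8 highest and 8 lowest members with at least 2 FPKM in either library, the 10 of highest mean FPKM, the 6 longest, up to 4 per list by size of ratio, those nearest the limits, and Ercc1. Not all are described. Alternatives covered scaling, pseudocount, filters, interval midpoints, span limits and matching.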

Additional observations from a re-analysis of the deposited data

How the results depend on the processing

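No paired analysis was possible because each group holds 1 library, and for the same reason no library could be left out. The median difference from matched genes was below 0 under 20 of 20 alternatives in each comparison. The range was -0.42 to -0.12 for Ercc1 AL vs wt AL and -0.69 to -0.18 for Ercc1 DR vs Ercc1 AL. For Ercc1 DR vs wt AL it was -0.88 to -0.29. Scaling moves a member and its matched genes nearly alike, so the scaling alternatives could hardly change this sign. All alternatives use the same 3 libraries. The members' own median was below 0 under 15 of 16 alternatives in each comparison, but most of the 16 kept the median scaling. The exception in each was a change of scaling, so this count does not show that the sign is stable to scaling. Values below come in the order of these 3 comparisons, a value is called unchanged when it stays in the 95% order-statistic interval of the median or within 1.5 times a count, and only changed values are given. The cause of the changes was not tested. Without scaling, the medians were 0.16, -0.27 and -0.086, the members 2-fold higher 2, 5 and 13, those lower 9 in the first and 28 in the last, and the matched difference -0.61 in the last. With the shift subtracted after the pseudocount, which acts more on low genes by construction, the medians were -0.33, -0.60 and -0.87, those lower 29, 53 and 111, and the matched difference -0.61 in the last. Under scaling by the sum without the 100 most abundant rows, the medians were -0.28, 0.44 and 0.17. Those higher were then 61 and 37 and those lower 0 and 25 in the last 2 comparisons, with matched differences of -0.59 and -0.69. This scaling also turned single genes, with log2 ratios of 0.073 for Zfpm2 and 0.37 for Setbp1 in Ercc1 DR vs Ercc1 AL, and 0.060 for Dpyd and 0.021 for Bc1 on the X chromosome in Ercc1 DR vs wt AL. No other named member past 2-fold changed sign under the alternatives run for single genes.

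With a pseudocount of 0.1, those higher were 4, 5 and 6, those lower 36, 115 and 120, the last 2 medians -0.73 and -0.87 and the matched differences -0.29, -0.69 and -0.88. With no pseudocount and 1 FPKM in both libraries, the medians were -0.34, -0.31 and -0.64, the matched differences -0.42 in the first and -0.85 in the last, and 0 were higher in Ercc1 DR vs Ercc1 AL. With 1 FPKM in all 3 libraries, the first 2 medians were -0.23 and -0.20, the first matched difference -0.29, those higher 0 and 1 in the last 2 comparisons, and those lower 10 in the first and 37 in the last. From 2 FPKM on, the first median was -0.26 and the matched differences -0.32 in the first and -0.81 in the last. From 0.5 FPKM on, the matched differences were -0.12, -0.18 and -0.29. From 200 kb on, the last 2 comparisons had 4 and 5 higher and matched differences of -0.28 and -0.45, with a median of -0.32 in Ercc1 DR vs Ercc1 AL. From 500 kb on, those higher were 0, 0 and 0, those lower 7, 9 and 24, the last 2 medians -0.58 and -0.78, and the matched differences -0.29, -0.52 and -0.76. Among rows with 1 start entry, 0 were higher in the first comparison and 1 in the last. Matching on mean FPKM gave -0.27 and -0.41 in the last 2 comparisons, and genes of 5 to 10 kb gave -0.42 in the last. Leaving out members with a mean of 10 FPKM or more, an alternative chosen after seeing the data, left 0 and 1 higher in the first and last comparison and 12 and 16 lower in the first 2. Other alternatives left these values unchanged, among them leaving out the 2 Bc1 rows or the 3 members under 80% overlap with their GENCODE gene, both chosen after seeing the data. At the low level of most members, differences near the width of the deposited interval could not be detected.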
